A study of Mus musculus with 90 samples.

Results

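The feedback inhibitors of JAK-STAT signalling were followed as 9 genes chosen by name, each found as 1 row among the 53697 gene identifiers of the count table. They were the SOCS genes Socs1, Socs2, Socs3 and Cish, the phosphatase genes Ptpn1, Ptpn2, Ptpn6 and Ptpn11, and Pias1. RNA was counted by 3′ digital gene expression, which reads transcripts near their 3′ ends, in the mouse melanoma line YUMM2.1 and the mouse colorectal cancer line CT26. Each line gave 45 samples in 15 groups of 3, described in the labels as triplicate experiments without naming separate cultures, so that p-values measure the spread between these samples. Control cultures received BSA (0 IU/mL IFNγ) and were collected at 0, 1, 2 and 3 weeks. IFNγ-naïve cells received 50 IU/mL IFNγ for 2 h or 24 h at 0 weeks. Chronically exposed cells spent 1, 2 or 3 weeks in 50 IU/mL IFNγ. At the end of that time they were either left without rechallenge (0 h) or rechallenged with fresh IFNγ and harvested 2 h or 24 h later. All groups shared the same medium and were replated before harvest. The comparisons asked whether the genes that restrain the pathway rose with IFNγ, whether they stayed high under continuous exposure, and how their response to rechallenge changed with the length of exposure.

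IFNγ binds a receptor that activates the kinases JAK1 and JAK2, which phosphorylate transcription factors of the STAT family. Phosphorylated STAT dimers enter the nucleus and bind GAS elements, as in the promoter of Irf1, an early target that encodes a transcription factor. STATs also switch on SOCS genes, whose proteins then block the kinases or mark receptor complexes for degradation, closing a negative feedback loop. Tyrosine phosphatases of the PTPN family remove the activating phosphates, and PIAS1 binds activated STAT proteins and limits their contact with DNA. The SOCS genes are known for regulation through transcription, whereas the phosphatases and PIAS1 are present before stimulation and are regulated largely as proteins.

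The promoters of 7 of the 9 genes had an entry in RefSeq (GRCm38.p6), with none for Socs2 and Ptpn2. Windows of 300 bases around the start were searched on both strands for the GAS motif TTCNNNGAA, which 8.3% of 32851 promoter windows held, and for the ISRE-type motif GAAANNGAAA, bound by IRF factors, which 3.44% held. Upstream of the start, the Socs1 window held 2 overlapping ISRE-type matches, 83 and 77 bases before the start, and no GAS match. The Socs3 window held 1 GAS match 154 bases before the RefSeq start, which lies inside the GENCODE span of the gene given below, and the first of the 2 windows of Irf1 held 1 GAS match 90 bases before the start. No match was found in the windows of Ptpn1, Ptpn6, Ptpn11 and Pias1, and the 2 GAS matches of Cish lay at and after the start. The sequences of the 2 members that rose with IFNγ are shown with that of Irf1, 5′ to 3′ on the gene's strand, with the matches in capitals. That of Socs1 covers chr16:10785537-10785786 (minus strand), that of Socs3 chr11:117969452-117969616 (minus strand) and that of Irf1 chr11:53769764-53770013 (plus strand).
Socs1: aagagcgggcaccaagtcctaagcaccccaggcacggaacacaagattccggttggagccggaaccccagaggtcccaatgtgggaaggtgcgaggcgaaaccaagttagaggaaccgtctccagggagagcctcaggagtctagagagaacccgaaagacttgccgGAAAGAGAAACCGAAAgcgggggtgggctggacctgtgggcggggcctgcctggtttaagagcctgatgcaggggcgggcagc
Socs3: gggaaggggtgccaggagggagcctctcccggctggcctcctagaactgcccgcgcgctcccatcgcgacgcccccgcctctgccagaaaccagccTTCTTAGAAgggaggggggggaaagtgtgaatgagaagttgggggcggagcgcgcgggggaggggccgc
Irf1: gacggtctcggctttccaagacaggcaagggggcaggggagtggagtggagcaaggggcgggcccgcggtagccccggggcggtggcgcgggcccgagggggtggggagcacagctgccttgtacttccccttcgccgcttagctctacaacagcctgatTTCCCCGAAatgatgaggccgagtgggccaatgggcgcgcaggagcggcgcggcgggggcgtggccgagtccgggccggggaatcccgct

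The inhibitors differed in how well they could be measured. YUMM2.1 samples held 274719 to 3161276 counts in all and CT26 samples 295157 to 2205285. In a sample of median depth, 3 counts corresponded to 2.14 CPM (a count divided by its library total and scaled up) in YUMM2.1 and 2.28 CPM in CT26. Ptpn2, Pias1 and Ptpn11 had counts in all 90 samples, with medians per sample of 58, 50 and 38 counts in YUMM2.1, against 31, 35 and 44 in CT26. Ptpn1 also had counts in every sample, with medians of 21 in YUMM2.1 and 14 in CT26. Socs1 had a median of 13 counts in YUMM2.1 and 3 in CT26, Socs3 of 10 and 4, and Ptpn6 of 13 and 3. Socs2, which is best known for restraining growth hormone signalling, had 0 to 7 counts per sample in YUMM2.1 and 0 to 12 in CT26. Cish, a STAT5 target in blood cells, had 16 counts in all across 9 of the 45 YUMM2.1 samples. It had 0 counts in all 45 CT26 samples, which allows up to 0.0531 CPM over these samples. Exons of Cish and Ptpn6 overlap genes on the opposite strand in the GENCODE annotation, and the strand setting of the counting is not given in the sources used here. After removal of genes with low counts, 7 members were tested among 9589 genes in YUMM2.1 (not Socs2 and Cish) and 6 among 8516 genes in CT26 (not Ptpn6 either). In CT26 Socs1 and Socs3 passed this filter only through IFNγ-treated samples, where they are high. Their CT26 tests are therefore given as a description.

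Among lineage markers, Sox10 and Krt18 separated the lines, and most others had few counts in both. Of 7 melanocyte markers, Sox10 had counts in all 45 YUMM2.1 samples and in no CT26 sample, but Tyrp1 and Mlana had 0 and 1 counts in all of YUMM2.1. The summed counts of Dct were 56 in YUMM2.1 and 127 in CT26, those of Tyr 15 and 21, those of Mitf 144 and 147, and those of Pmel 19 and 2. Krt18 had counts in all CT26 samples and 1 count in all of YUMM2.1, but Epcam, Cdh1 and Vil1 had 0 counts in CT26. Of 6 leukocyte markers, Cd3e had 0 counts in both lines, and Ptprc had 11 counts in YUMM2.1 and 67 in CT26. The summed level of the 6 ranged from 2.03 to 21.8 CPM in YUMM2.1, with a CT26 range of 1.35 to 15.4 CPM, and Cd68 held most of it. Samples were below 25% of the line's median total in 1 YUMM2.1 case (chronic exposure for 3 weeks without rechallenge, replicate 3) and 2 CT26 cases (the same group, replicate 3, and that of 1 week, replicate 3).

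In YUMM2.1, Socs1 and Socs3 rose 2 h after IFNγ when naïve and chronically exposed cells were averaged. Socs1 (chr16:10782240-10785536, minus strand, GRCm38), whose protein blocks JAK kinases directly, measured 7.58, 6.06 and 3.2 CPM in the 3 controls at 0 weeks and 12.8, 11.6 and 12.5 CPM after 2 h of IFNγ. At 1 week the 3 samples without rechallenge measured 4.52, 7.7 and 8.44 CPM, and the 3 rechallenged for 2 h measured 20.2, 24.2 and 11.4 CPM. At 2 weeks Socs1 measured 5.83, 9.81 and 8.66 CPM without rechallenge and 10.5, 16.0 and 12.0 CPM at 2 h. In all of these, every sample at 2 h lay above every comparison sample. At 3 weeks the samples without rechallenge measured 9.7, 9.93 and 0.0 CPM and those at 2 h measured 14.7, 27.5 and 10.7 CPM. The groups again did not overlap, and the value of 0.0 CPM came from the library with the lowest total. The share of all genes without overlap was not counted here or in the comparisons below, so these separations describe the samples only.

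Averaged over the 4 durations, Socs1 rose 2.14-fold at 2 h (log2 fold change 1.10, 95% interval 0.67 to 1.52, edgeR quasi-likelihood test, adjusted p = 0.000552). Without the shallow library of 3 weeks the log2 fold change was 1.04 (adjusted p = 0.000702), and the call held when each of the 24 libraries was left out in turn, with a highest adjusted p of 0.00313. It was lost when the samples numbered replicate 1 were left out of all groups (adjusted p = 0.0542). These are bulk samples, in which more cells with the transcript and more of it per cell cannot be told apart. The averaged contrast was added after the low counts of the members had been seen.

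Socs3 (chr11:117966079-117970047, minus strand), best known for restraining IL-6 family receptors, followed a like course with wider spread. Naïve controls measured 4.87, 2.42 and 5.11 CPM and naïve cells at 2 h 5.74, 12.3 and 7.37 CPM. At 1 week Socs3 measured 7.53, 4.95 and 0.0 CPM without rechallenge and 13.6, 20.1 and 8.89 CPM at 2 h. Neither pair of groups overlapped. At 2 weeks it measured 3.24, 11.6 and 2.4 CPM without rechallenge and 7.31, 13.7 and 9.19 CPM at 2 h. At 3 weeks it measured 6.06, 6.95 and 10.4 CPM without rechallenge and 16.1, 23.7 and 10.0 CPM at 2 h. These groups overlapped in 1 or more samples. As for Socs1, the share of all genes without overlap was not counted. The averaged rise was 2.18-fold (log2 fold change 1.12, 95% interval 0.59 to 1.66, edgeR, adjusted p = 0.00963), and it held without each library in turn (highest adjusted p = 0.0313). It was lost without the replicates numbered 1 (adjusted p = 0.0968) or 2 (0.186).

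**Figure D1:**
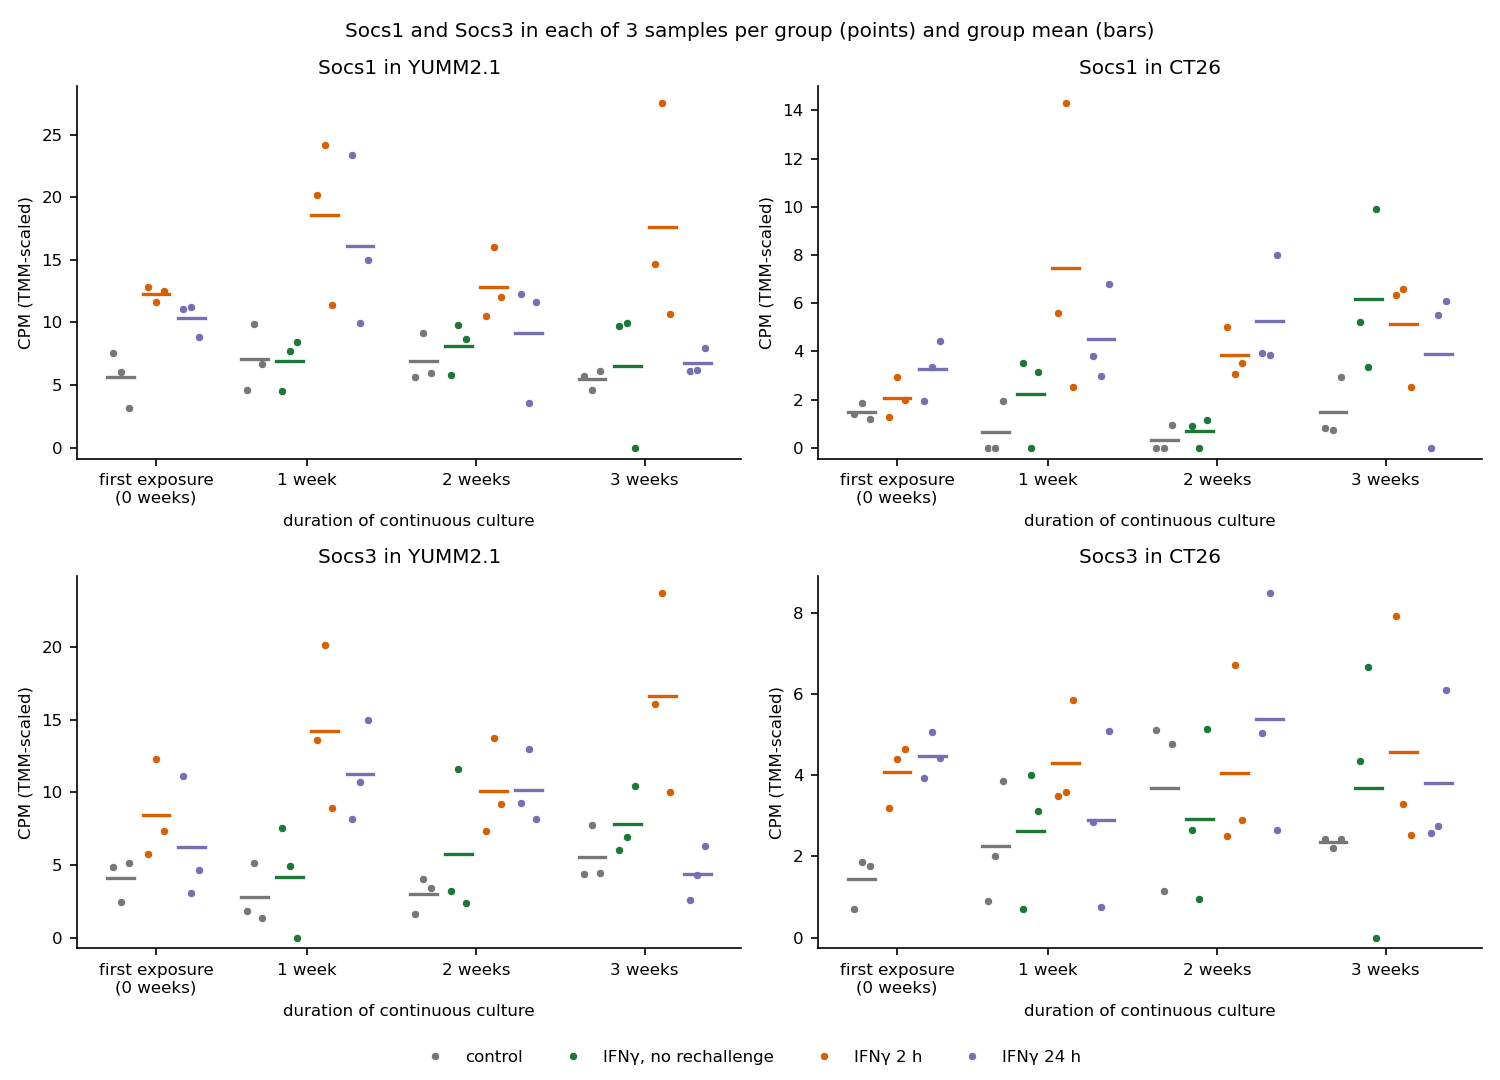
TMM-scaled CPM of Socs1 (top) and Socs3 (bottom) in YUMM2.1 (left) and CT26 (right), with 3 points per group in replicate order, a bar for the group mean, and colours for control, chronic IFNγ without rechallenge, 2 h and 24 h of IFNγ. In YUMM2.1 the 2 h samples of Socs1 lie above their comparison samples at every duration, whereas in CT26 all but 1 sample lie below 10 CPM and the groups overlap more often. How many genes at large separate without overlap was not counted.

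Of the 7 members tested in YUMM2.1, 2 (Socs1 and Socs3) were called higher in the averaged 2 h response, beside 2.19% of all genes called in either direction. None was called in the averaged 24 h response (1.52% of all genes). At a single duration, no member was called in YUMM2.1 at 2 h or 24 h in naïve cells, where 0.240% and 0.886% of all genes were called, nor in naïve cells at 24 h against 2 h (0.563%). The same held at 2 h after rechallenge at 1, 2 and 3 weeks (0.615%, 0.428% and 1.08% of all genes) and at 24 h (1.42%, 0.615% and 0%). The closest was Socs1 at 2 h after 1 week, 2.98-fold higher (log2 fold change 1.58, 95% interval 0.74 to 2.41, edgeR, adjusted p = 0.0651). DESeq2 called this difference (adjusted p = 0.0478), as did edgeR without the shallow library (0.0388). Over the 14 planned contrasts in YUMM2.1, the 98 tests of members gave 0 calls with edgeR, 1 with DESeq2 and 9 at an unadjusted p under 0.05 (9.18%), beside 7.21% of all tests at that unadjusted level.

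Immediate-early genes, which are switched on by growth factors and by handling as well as by cytokines, moved in the same samples. Of 8 tested in YUMM2.1 (of 12 listed), Egr1, Egr2, Junb and Myc rose in the averaged 2 h response. Junb rose by 1.77 on the log2 scale (95% interval 1.41 to 2.13, edgeR, adjusted p = 3.3e-10), and Egr1 by 1.42 (0.91 to 1.93, adjusted p = 0.000155). None of the 8 was called in naïve cells at 2 h. In CT26 Junb alone of 6 tested rose, by 0.90 (0.64 to 1.17, adjusted p = 9.58e-06). Their part in the rise of Socs1 and Socs3 was not tested.

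At 24 h Socs1 measured 11.1, 11.2 and 8.84 CPM in naïve YUMM2.1 cells, 23.4, 9.97 and 15 CPM at 1 week, 12.3, 3.54 and 11.6 CPM at 2 weeks and 6.12, 6.19 and 7.98 CPM at 3 weeks. The naïve and 1-week samples all lay above those without fresh IFNγ, and the 2-week samples lay on both sides. The 3-week samples lay below the 9.7 and 9.93 CPM measured without rechallenge and above the 0.0 CPM of the library with the lowest total. Its log2 fold changes were 0.84, 1.29, 0.24 and -0.30 in that order of durations, with 95% intervals that included 0 at 0, 2 and 3 weeks. The change per week of the 24 h response was -0.45 (95% interval -0.86 to -0.03, edgeR, unadjusted p = 0.0356, adjusted p = 0.781). Socs3 at 24 h measured 11.1, 3.05 and 4.63 CPM in naïve cells, 8.15, 10.7 and 15 CPM at 1 week, 9.25, 13.0 and 8.16 CPM at 2 weeks and 2.62, 4.33 and 6.27 CPM at 3 weeks, where 2 of 3 samples lay below all samples without rechallenge. Its 24 h log2 fold changes were 0.42, 1.11, 0.91 and -0.61, with a change per week of -0.33 (95% interval -0.86 to 0.21). Neither trend was called, beside 0.636% of all genes.

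The falling response to rechallenge was read at 24 h and 2 h from a list of 14 IFNγ response genes, chosen with earlier results of these data known, so that its direction is not independent evidence. At 24 h in YUMM2.1, 10 of 14 rose in naïve cells, 8 after 1 week, 4 after 2 weeks and 0 after 3 weeks, with median log2 fold changes of 2.44, 1.74, 0.98 and -0.02. In CT26 the counts were 11, 5, 5 and 0, and the medians 2.84, 1.20, 0.98 and -0.06. At 2 h the counts of the list did not fall steadily in YUMM2.1, at 1, 5, 2 and 6 of 14 with medians of 1.02, 0.91, 0.52 and 0.87, and the difference between its 3-week and naïve response had a median of 0.04. In CT26 the 2 h counts were 1, 2, 1 and 0, with medians of 0.43, 0.48, 0.49 and 0.07. At 2 h, Irf1 rose by 4.07, 2.74, 1.90 and 2.78 on the log2 scale in YUMM2.1 and by 3.46, 1.78 and 1.77 in CT26 at 0, 1 and 2 weeks, while at 3 weeks in CT26 its log2 fold change was 0.46 (edgeR, adjusted p = 0.577). Mean Irf1 levels at 2 h were 150, 249, 185 and 215 CPM in YUMM2.1 at 0, 1, 2 and 3 weeks. In CT26 they were 80.2, 91.6, 99.3 and 102 CPM. Without fresh IFNγ the means were 8.63, 37.1, 50.3 and 32.9 CPM in YUMM2.1 and 7.24, 28.2, 28.3 and 74.8 CPM in CT26. The smaller fold changes of Irf1 after exposure thus came with higher starting levels and not with lower levels at 2 h. The 2 h log2 fold changes of Socs1 were 1.12, 1.58, 0.63 and 1.07 for YUMM2.1, against 0.44, 1.62, 2.23 and 0.00 in CT26. The CT26 value after 1 week rested on single replicates, at 0.25 without replicate 2 and 3.00 without replicate 1. Those of Socs3 were 0.90, 1.47, 0.88 and 1.24 for YUMM2.1, against 1.41, 0.98, 0.32 and 0.11 in CT26. The comparisons at one duration share the samples without fresh IFNγ.

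The difference between the 3-week and the naïve response was tested directly. For Socs1 in YUMM2.1 it was -0.05 at 2 h (95% interval -1.19 to 1.10, edgeR, adjusted p = 0.999) and -1.14 at 24 h (-2.46 to 0.18, adjusted p = 0.839). For Irf1 the difference was -1.29 at 2 h (-1.91 to -0.67, adjusted p = 0.0992), where its level was not lower, as given above. At 24 h that of Irf1 was -2.65 (-3.31 to -1.99, adjusted p = 8.35e-08). For Socs3 it was 0.35 at 2 h (-1.24 to 1.93) and -1.02 at 24 h (-2.73 to 0.69). No member was called in either contrast, in which 0.115% and 0.615% of all genes were called. The change per week of the 2 h response in YUMM2.1 was -0.11 for Socs1 (95% interval -0.50 to 0.28) and 0.05 for Socs3 (-0.46 to 0.55), neither called, beside 0.136% of all genes. That of Irf1 was -0.47 (-0.66 to -0.28, adjusted p = 0.0103), and that value lay inside the interval of Socs1.

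**Figure D2:**
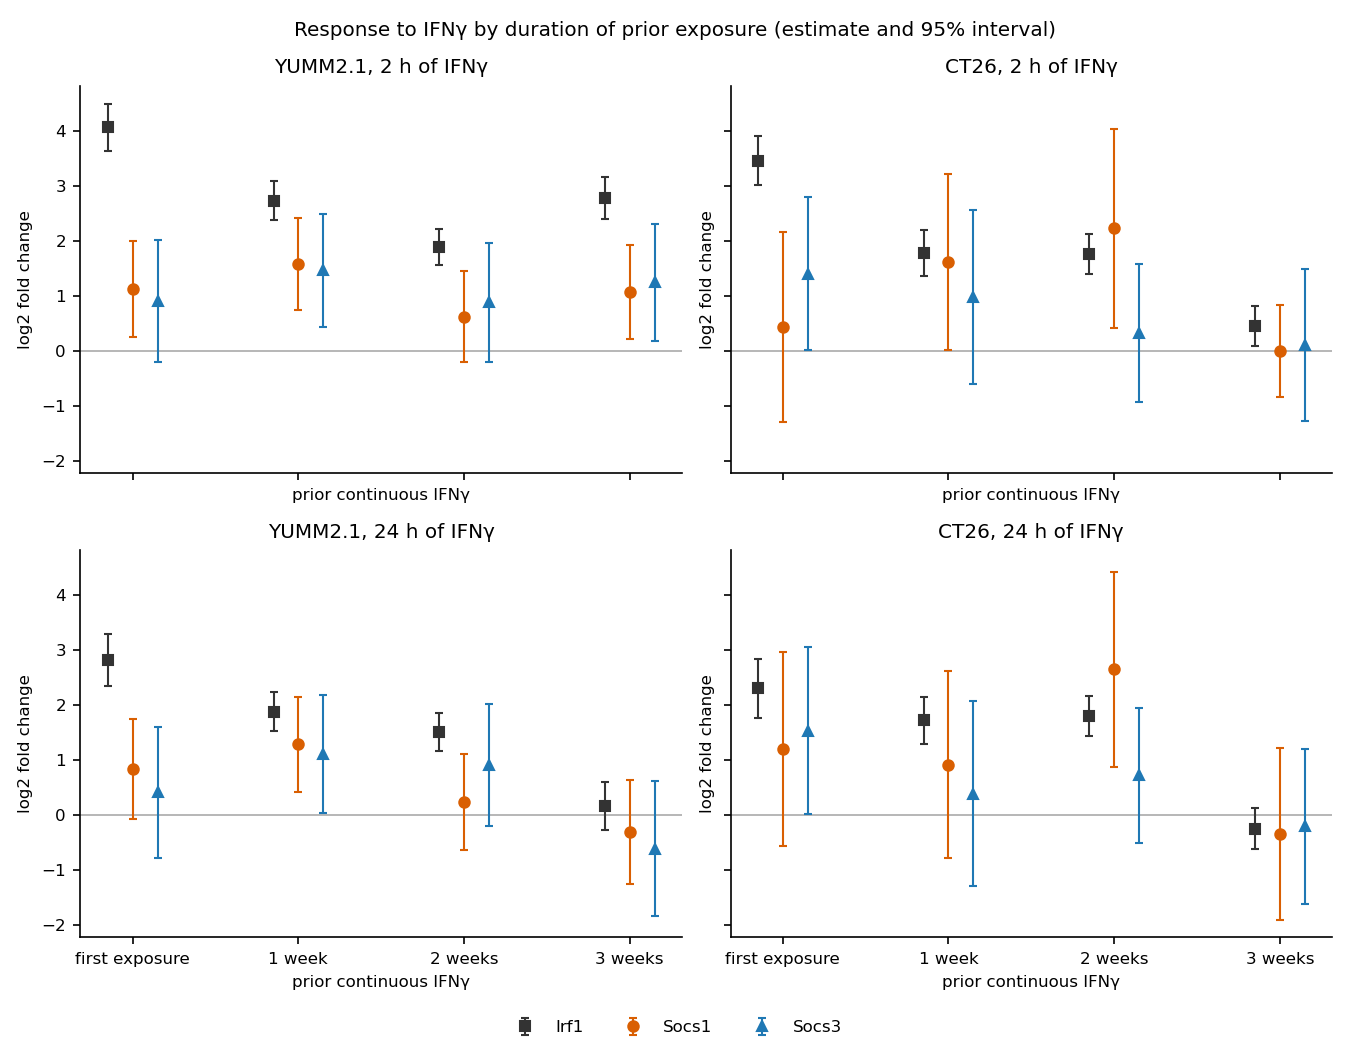
Log2 fold change, with its 95% interval, of Irf1, Socs1 and Socs3 at 2 h (top) and 24 h (bottom) of IFNγ against cells without fresh IFNγ, by prior continuous exposure, in YUMM2.1 (left) and CT26 (right). At 24 h the points of Irf1 are lower at 3 weeks than at first exposure in both lines, and the intervals of Socs1 and Socs3 are wider than those of Irf1, most of all in CT26.

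In CT26 Socs1 was near the limit of detection. It measured 1.41, 1.86 and 1.18 CPM in the controls at 0 weeks and 1.28, 2.93 and 1.99 CPM in naïve cells at 2 h. At 1 week it measured 3.53, 0.0 and 3.13 CPM without rechallenge and 5.58, 14.3 and 2.51 CPM at 2 h. These groups overlapped. At 2 weeks the 3 samples without rechallenge measured 0.887, 0.0 and 1.15 CPM, those at 2 h 5.02, 3.05 and 3.5 CPM, and those at 24 h 3.93, 3.86 and 7.98 CPM. Here the rechallenged samples all lay above those without rechallenge, and the share of all genes that did so was not counted. At 3 weeks the samples without rechallenge measured 5.22, 3.34 and 9.93 CPM, the third being a shallow library, and those at 2 h measured 6.35, 6.58 and 2.54 CPM. At 3 weeks the groups lay over each other.

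Averaged over the durations, Socs1 in CT26 was 2.1-fold at 2 h (95% interval 1.17 to 3.77, edgeR, unadjusted p = 0.0139, adjusted p = 0.351) and 2.16-fold at 24 h (1.19 to 3.90, unadjusted p = 0.0121, adjusted p = 0.282). These estimates, and those of Socs3, are a description, since both genes passed the CT26 count filter through IFNγ-treated samples. Socs3 in CT26 was 1.63-fold at 2 h (1.00 to 2.65, adjusted p = 0.541), with controls at 0.703, 1.86 and 1.77 CPM and naïve cells at 2 h at 3.2, 4.39 and 4.64 CPM, which did not overlap. No member was called in the averaged responses at 2 h or 24 h, in which 0.928% and 2.20% of all genes were called. The averaged 2 h estimate of Socs1 in CT26 stood beside 2.14-fold in YUMM2.1, but it was less stable. Over the alternative settings and left-out libraries its log2 fold change ranged from 0.51 to 1.385 in CT26 and from 0.98 to 1.19 in YUMM2.1. Its parts in CT26 differed by duration, as given above, and the wide interval comes with a median of 3 counts per sample.

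No member was called in CT26 at a single duration either. The shares of all genes called were 0.235% and 2.04% in naïve cells at 2 h and 24 h, and 2.05% at 24 h against 2 h. After rechallenge at 1, 2 and 3 weeks they were 0.376%, 0.305% and 0.0117% at 2 h and 1.32%, 0.658% and 0% at 24 h. The 84 tests of members over the 14 planned contrasts gave 0 calls with edgeR, 0 with DESeq2 and 8 at an unadjusted p under 0.05 (9.52%), beside 8.8% of all tests. The difference between the 3-week and the naïve response of Socs1 was -0.44 at 2 h (95% interval -2.70 to 1.83) and -1.55 at 24 h (-3.89 to 0.80), neither called, beside 0.211% and 1.20% of all genes. The change per week of the 2 h response was -0.07 for Socs1 (-0.87 to 0.74) and -0.46 for Socs3 (-1.07 to 0.16), and that of the 24 h response was -0.29 (-1.06 to 0.48) and -0.49 (-1.14 to 0.17). None was called, beside 0.200% and 1.23% of all genes.

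Under continuous IFNγ without rechallenge, no member was called against controls of the same age. In YUMM2.1 Socs1 measured 4.57, 9.86 and 6.72 CPM in the controls of 1 week, 5.62, 9.13 and 5.97 CPM in those of 2 weeks and 5.73, 4.64 and 6.16 CPM in those of 3 weeks. These ranges overlapped with the chronically exposed samples given above. Averaged over 1, 2 and 3 weeks, Socs1 was 1.18-fold (95% interval 0.819 to 1.69, edgeR, adjusted p = 0.787), while Irf1 rose by 1.68 on the log2 scale (1.42 to 1.95, adjusted p = 3.06e-14). Socs3 was 1.61-fold (0.990 to 2.61, adjusted p = 0.396). In CT26 Socs1 was 2.57-fold (1.00 to 6.60, unadjusted p = 0.0492, adjusted p = 0.221) against controls with 0.0, 0.0 and 1.93 CPM at 1 week, 0.0, 0.0 and 0.956 CPM at 2 weeks and 0.812, 0.732 and 2.92 CPM at 3 weeks. This too is a description, since Socs1 passed the CT26 count filter only through IFNγ-treated samples. Only at 3 weeks did every chronically exposed CT26 sample lie above every control of its age.

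In YUMM2.1 the shares of all genes called under continuous IFNγ were 0.730%, 1.12% and 0.970% at 1, 2 and 3 weeks, and 2.95% in the average. In CT26 they were 0.728%, 1.67%, 7.23% and 8.14%. Among the members, Ptpn2 at 3 weeks in YUMM2.1 measured 35.1, 21.8 and 27.8 CPM against 41.4, 36.4 and 48.2 CPM in controls of the same age, without overlap (log2 fold change -0.53, 95% interval -0.93 to -0.13, edgeR, adjusted p = 0.273). Pias1 at 3 weeks in CT26 had a log2 fold change of -0.68 (-1.26 to -0.10, adjusted p = 0.149), also without overlap. The lowest of its chronically exposed samples, 6.62 CPM, came from the shallow library. At 2 weeks in CT26, Ptpn2 (19.5 to 29.2 against 16 to 18.3 CPM) and Ptpn11 (29.3 to 36.1 against 26.2 to 27.7 CPM) lay higher without overlap. Neither was called. These were seen among 21 tests of members in YUMM2.1 and 18 in CT26, and the share of all genes without overlap was not counted.

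The phosphatase genes and Pias1 had no call in response to IFNγ in either line. PTPN2 dephosphorylates JAK1 and JAK3 and is the phosphatase most closely tied to IFNγ signalling. Ptpn2 ranged from 21.8 to 54.6 CPM over the 45 YUMM2.1 samples. Its averaged 2 h response was 1.01-fold (95% interval 0.882 to 1.16) in YUMM2.1 and 1.19-fold (0.979 to 1.45) in CT26. Pias1, which encodes a SUMO ligase, was 1.02-fold (0.869 to 1.20) and 1.05-fold (0.869 to 1.28). Doublings of either gene therefore lay outside these intervals. Ptpn11, a phosphatase that also promotes growth factor signalling, was 1.11-fold (0.877 to 1.40) and 0.998-fold (0.815 to 1.22). Ptpn1, which acts on JAK2 and TYK2, was 1.01-fold (0.726 to 1.42) and 1.33-fold (0.983 to 1.79). Ptpn6, most abundant in blood cells, was 1.02-fold (0.731 to 1.42) in YUMM2.1. The highest group mean of Ptpn11 in YUMM2.1, 37.5 CPM, was that of naïve cells at 24 h. These samples measured 31.5 to 46.8 CPM against 17 to 27.6 CPM in their controls, without overlap and without a call. The share of all genes without overlap was not counted. After 1, 2 and 3 weeks the means of Ptpn11 at 24 h were 22.7, 22.8 and 22.4 CPM, below the 29, 24.5 and 28.5 CPM without rechallenge. Members below the count filter were also fitted without it. The averaged 2 h log2 fold change of Socs2 was then -0.70 (95% interval -1.65 to 0.25) in YUMM2.1 and 0.29 (-0.44 to 1.02) in CT26, and that of Ptpn6 in CT26 was 0.36 (-0.40 to 1.12).

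Ordered by mean level over the 15 groups, neighbouring groups of Ptpn1, Ptpn2, Ptpn6 and Ptpn11 differed by less than the larger SD of the pair in all 14 neighbouring pairs of either line. The same held for Socs3. For Socs1 it held for 13 of 14 pairs in each line, and for Pias1 for 14 in YUMM2.1 and 13 in CT26. Sorting by mean makes the gaps between neighbours small, so these counts cannot tell a gene that responds from one that does not. The highest mean of Socs1 was at 2 h after 1 week in both lines, 18.6 ± 6.55 CPM (SD, n = 3) in YUMM2.1 and 7.46 ± 6.12 CPM in CT26. Its lowest was 5.51 ± 0.784 CPM in the 3-week control of YUMM2.1 and 0.319 ± 0.552 CPM in the 2-week control of CT26. The top 4 groups of Socs1 in YUMM2.1 were those at 2 h after 1, 3 and 2 weeks and at 24 h after 1 week, and the top 4 of Socs3 were these same groups.

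**Figure D3:**
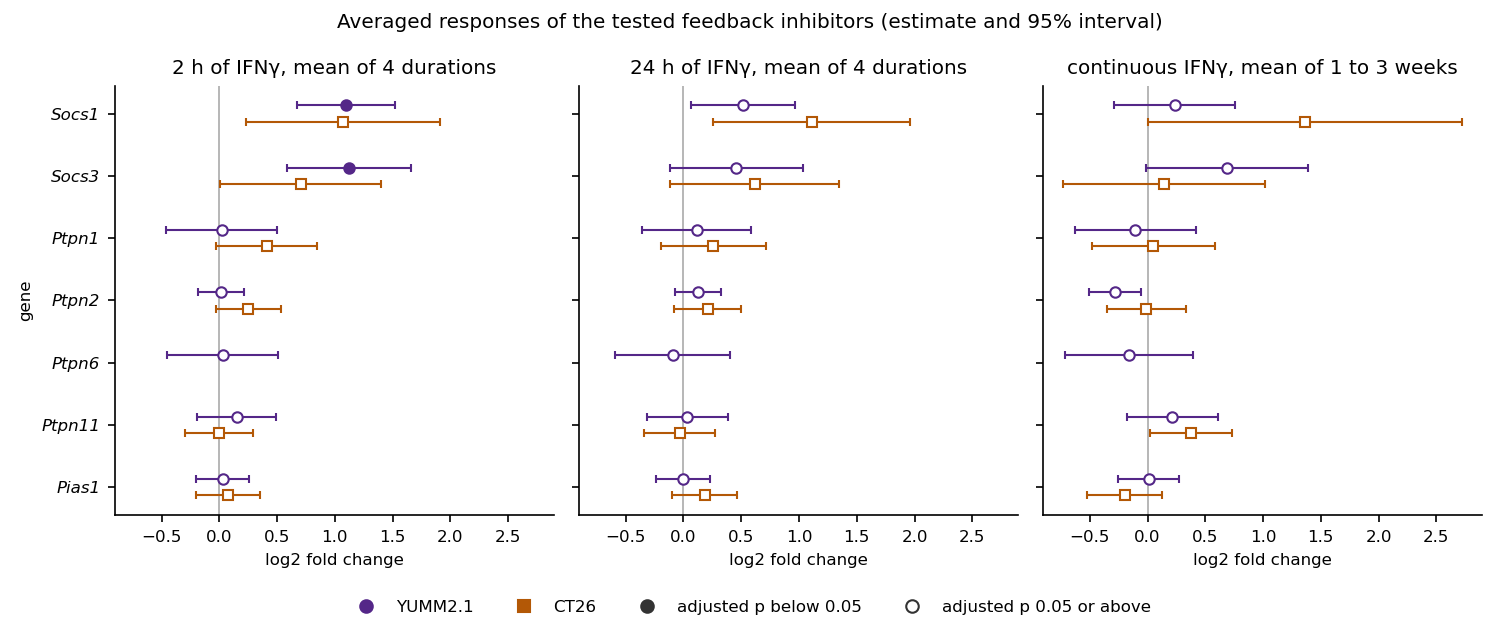
Log2 fold change, with its 95% interval, of each tested inhibitor in the averaged 2 h response (left), the averaged 24 h response (middle) and under continuous IFNγ against controls of the same age (right), with circles for YUMM2.1, squares for CT26 and filled symbols for an adjusted p below 0.05. Socs1 and Socs3 of YUMM2.1 at 2 h are the only filled symbols, and the symbols of the phosphatases and Pias1 are all open.

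Other attenuators of the pathway were read from a list of 11 genes, 10 of them tested in each line. Apart from Usp18 and Pdlim2, no gene of the list was called in the naïve, continuous, rechallenge or averaged contrasts. Usp18, which removes ISG15 and blocks the type I interferon receptor, rose in CT26 from 7.0 ± 1.68 CPM (SD, n = 3) in controls to 106 ± 23.2 CPM in naïve cells at 24 h (log2 fold change 3.93, 95% interval 3.39 to 4.48, edgeR, adjusted p = 2.05e-15). It also stayed higher at 3 weeks of continuous IFNγ, at 83.4 ± 9.40 CPM against 5.52 ± 1.57 CPM, and its 24 h response was smaller at 3 weeks than in naïve cells by 3.84 on the log2 scale (adjusted p = 3.62e-11). In YUMM2.1 Usp18 had 0 counts in the controls of 0, 1 and 3 weeks and 49 counts in the 3 samples at 24 h after 1 week, where it was called against 4 counts without rechallenge (adjusted p = 0.00374). Controls with 0 counts cannot pass the count filter, so Usp18 was tested there through samples where it is higher. That call is given as a description. Pdlim2, which promotes the degradation of STATs, fell by 0.43 on the log2 scale in the averaged 24 h response of YUMM2.1 (adjusted p = 0.000791) and by 0.80 at 3 weeks of continuous IFNγ in CT26 (adjusted p = 0.0434). The median of the list in the averaged 2 h response was 0.26 in YUMM2.1 and 0.07 in CT26, beside 0.01 over all genes in both. Under continuous IFNγ, averaged over 1, 2 and 3 weeks, it was 0.59 in CT26 and 0.03 in YUMM2.1, again beside 0.01 over all genes. By week the CT26 medians were 0.46, 0.63 and 0.87, and the calls were of Usp18 and Pdlim2.

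Genes for the receptor, kinases and STATs on which the inhibitors act were read beside them. In the averaged 2 h response of YUMM2.1, Stat2 rose by 1.86 on the log2 scale (edgeR, adjusted p = 6e-06) and Stat3 by 1.34 (adjusted p = 2.39e-06). In CT26 Stat2 rose by 3.14 in naïve cells at 24 h (adjusted p = 1.25e-05), and Stat3 was not called. None of Ifngr1, Ifngr2, Jak1, Jak2 and Tyk2 was called in response to IFNγ in either line.

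The lines differed in the levels of 4 of the 7 members tested in control cells at 0 weeks, in a fit in which 46.0% of all 10339 genes were called. On a scale set over both lines, Ptpn6 (chr6:124720707-124738714, minus strand) measured 13.5, 13.5 and 7.45 CPM in YUMM2.1 and 3.81, 2.01 and 3.2 CPM in CT26. It was lower in CT26 (log2 fold change -1.90, 95% interval -3.02 to -0.78, edgeR, adjusted p = 0.0036). Ptpn6 had not passed the count filter in CT26 alone and entered this fit through YUMM2.1, where it is high, so that its call is given as a description. Ptpn11 (chr5:121130533-121191397, minus strand) measured 26.4, 15.7 and 21.7 CPM in YUMM2.1 and 28.9, 40.2 and 57.6 CPM in CT26, and was higher in CT26 (0.94, 0.33 to 1.56, adjusted p = 0.00858). That call was lost without CT26 control replicate 3 (adjusted p = 0.128). Groups of both genes did not overlap.

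Ptpn2 measured 36.8, 43.9 and 40.4 CPM in YUMM2.1 and 22.1, 25.5 and 28.8 CPM in CT26, and was lower in CT26 (-0.65, -1.09 to -0.20, edgeR, adjusted p = 0.013). The call was lost without CT26 control replicate 1 (adjusted p = 0.0631). Socs1 measured 7.26, 5.62 and 3.1 CPM in YUMM2.1 and 1.52, 2.01 and 1.28 CPM in CT26 (-1.69, -3.00 to -0.38, adjusted p = 0.0286). Without CT26 control replicate 1 or 3 or YUMM2.1 control replicate 1 its adjusted p was 0.0649, 0.0906 and 0.186, and without the filter on low counts 0.0787. Socs3 (-1.35, -2.73 to 0.03) and Pias1 (-0.48, -0.97 to 0.02) also lay lower in every CT26 sample but were not called. Apart from Ptpn6, 3 of 6 members were called, near the 46.0% of genes at large, and the lines also differ in tissue of origin and mouse strain. The share of all genes without overlap between the lines was not counted, so the separations of members describe these samples only.

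**Figure D4:**
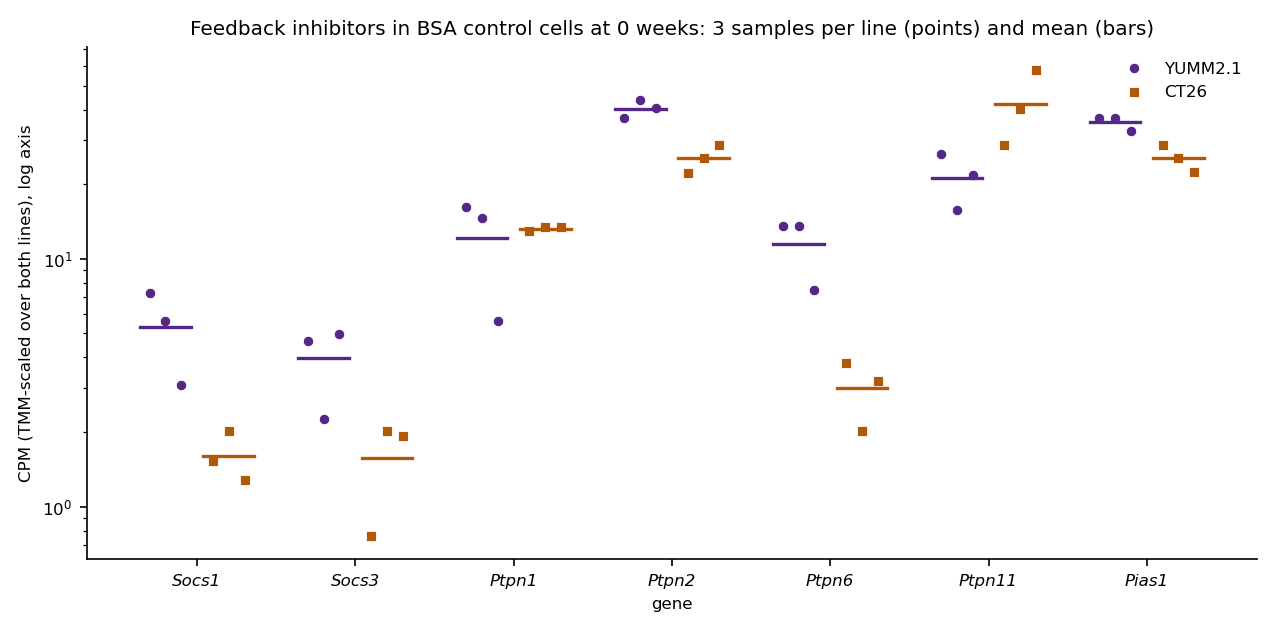
CPM on a log axis, scaled over both lines, of the 7 tested inhibitors in the 3 BSA control samples of each line at 0 weeks (points) with their mean (bars). The samples of Socs1, Socs3, Ptpn2, Ptpn6 and Pias1 are lower in CT26 and those of Ptpn11 higher, without overlap, and those of Ptpn1 overlap. In this comparison 46.0% of all genes were called, and how many separate without overlap was not counted.

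The responses themselves were not shown to differ between the lines. For Socs1 the difference in 2 h response, CT26 minus YUMM2.1, was -0.68 in naïve cells (95% interval -2.60 to 1.25, edgeR, adjusted p = 1) and -1.02 after 3 weeks (-2.64 to 0.61, adjusted p = 0.925). For Socs3 the values were 0.53 (-1.19 to 2.24) and -1.10 (-2.83 to 0.62). No member was called in these contrasts, in which 0% and 0.193% of all genes were called.

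Over the 15 group means, the pattern of Socs1 was most like that of Hk2, Cxcl10 and Irf1 in YUMM2.1, with Pearson r of 0.902, 0.86 and 0.851 among 9588 other genes. In CT26 it was most like that of Batf2, Gm8995 and F830016B08Rik, with r of 0.902, 0.901 and 0.9, and r with Irf1 was 0.854. The r of Socs1 with Socs3 was 0.725 in YUMM2.1 and 0.529 in CT26. All of these points come from the same libraries, and the low counts of Socs1 limit each mean.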

How the data were processed

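RNA of 90 samples (2 lines, 15 groups, 3 replicates) was sequenced by 3′ digital gene expression. The authors deposited raw counts per gene, made with Salmon (v0.13.1, mm10, submitters' processing notes) and imported with tximport. The annotation release and the use of molecular identifiers are not given in the sources used here. The study discarded some samples without naming them, so all were kept. Fitted here were all groups of a line together with edgeR's quasi-likelihood test (v4.0.16, R v4.3.3, TMM scaling, filterByExpr by group), and all groups of both lines for comparisons between lines. P-values were Benjamini-Hochberg adjusted over all genes tested, with a threshold of 0.05. CPM are TMM-scaled. Members and lists were chosen with earlier results of these data known. All members were named, with values per sample for those called, list genes where called (1 gene of the receptor, kinase and STAT list is not reported here), and the 3 genes most like Socs1. DESeq2 (v1.42.0), library totals, no filter, only the compared groups, a replicate block, left-out replicates and left-out shallow samples were tried. Averaged and per-week contrasts, a threshold of 0.1 and left-out libraries were chosen after seeing the data. No replicate pair was identical (90 pairs). Scripts were tested on simulated data. Counting limits cover counting error only.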

Additional observations from a re-analysis of the deposited data

How the results depend on the processing

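Counts of members called in each family of comparisons were recomputed under each alternative, and 141 such values stayed within 1.5 times the reported count while 9 did not. Most families had a reported count of 0, for which staying meant 0 again. Of the families with calls, the averaged YUMM2.1 responses stayed in 8 of 10 alternatives and the comparison between lines in 6 of 10. In the YUMM2.1 rechallenge comparisons the count went from 0 to 1 with DESeq2, without samples under 25% of the median total, and at a threshold of 0.1. Each time the gene was Socs1 at 2 h after 1 week, whose adjusted p ranged from 0.0388 to 0.506 over the alternatives. The count in the averaged YUMM2.1 responses, 2, ranged from 0 to 2 when 1 replicate number was left out of all groups. The count between lines, 4, was 2 without the filter on low counts and 1 to 2 without 1 replicate number. With only the compared groups in the fit, Socs1 did not pass the filter between lines and gave no value there. Among single genes, 10 alternatives turned the sign, each of a small difference that was not called. Socs1 in CT26 at 2 h after 3 weeks had a log2 fold change of -0.0104 with library totals, -0.0131 with the replicate block and -0.4507 to -0.2041 without 1 replicate number. Without the shallow samples that of Socs3 was -0.1455, and the change per week of Socs1 at 2 h in CT26 was 0.0034. The difference between the 3-week and naïve 2 h response of Socs1 in YUMM2.1 was 0.0629 with library totals. Without 1 replicate number it ranged from -0.4553 to 0.3125, that of Socs3 from -0.1772 to 0.5279, and the change per week of Socs3 at 2 h from -0.1731 to 0.2013. The cause of these changes was not tested.

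The replicate numbers did not pair the samples, since in 0 of 11 contrasts in each line were all correlations of same-numbered deviations over 0.1. With the replicate block, Socs1 in the averaged 2 h response of YUMM2.1 had a log2 fold change of 1.10 (edgeR, adjusted p = 0.000627) and Socs3 of 1.11 (0.0057), and no count of calls changed by over 1.5 times.

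Depth limits these results. With medians of 3 to 13 counts per sample for Socs1, Socs3 and Ptpn6, the intervals of single comparisons were wide. Nothing in the labels says that replicates were separate cultures. RNA levels do not show protein or phosphatase activity.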
